A study of Mus musculus with 8 samples.

Results

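The genes described here are 8 members of the tripartite motif (TRIM) family of ubiquitin ligases: Trim21, Trim25, Trim26, Trim14 and Trim56, listed as inducible antiviral members, and Trim27, Trim28 and Trim33, listed as constitutive ones. Their probes were every probe of the deposited bead array table whose platform gene symbol is one of these names. For 6 of the 8 genes the table holds 11 probes, out of 25697 probes and 16593 named genes in all. Trim26 and Trim27 have no probe under their symbol or Entrez ID and are not analysed here. Of the 11 probes, 8 had a mean over the arrays above the background bound of 23.7 intensity units (the size of the lowest deposited value, which is negative), and 3 lay at or under the bound on all 8 arrays.

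RNA came from the mouse fibroblast line L929. The 4 groups were L929IRF8 cells (L929 with ectopic IRF8) given 1000 U/ml interferon beta (IFNβ) for 4 h, untreated L929IRF8 cells, L929 cells given the same IFNβ treatment, and untreated L929 cells, with 2 independent replicates in each group and 8 arrays in total. IRF8 is a transcription factor of myeloid and B cells. How it was brought into the cells, whether the L929IRF8 line is a clone and whether the parental L929 cells carry an empty vector are not given in the sources used here. The single Irf8 probe read -2.3 to 7.8 intensity units over the 8 arrays, under the bound in both lines, and whether the ectopic construct holds its target sequence is not given, so this probe does not check the L929IRF8 label.

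Most TRIM proteins have a RING domain, which transfers ubiquitin, followed by B-box and coiled-coil domains, and their carboxy-terminal domain sets what they bind. Type I interferon acts through its receptor on interferon-stimulated response elements (ISREs) in the promoters of its target genes, and several TRIM genes are known targets of that pathway. Some TRIM proteins act in virus sensing in the cytoplasm, whereas others are nuclear regulators of transcription.

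Deposited values were linear intensities, background-subtracted and already on 1 common distribution, with array medians of 13.8 to 13.9. Pearson correlations between the 2 arrays of a group were 0.9891 to 0.9915. Fibroblast markers were present: 8 of 9 on the array had a mean above the bound, and their summed intensity was 27616.0 to 29713.7 in L929IRF8 with IFNβ, 27570.4 to 28760.0 in untreated L929IRF8, 28638.5 to 29816.0 in L929 with IFNβ and 29411.9 to 32161.5 in untreated L929 cells, with Thy1 under the bound on every array. Of the myeloid markers, 2 of 6 (Lyz2 and Cd14) had a mean above the bound, with sums of 136.5 to 180.5, 124.3 to 194.6, 103.6 to 184.1 and 108.4 to 152.7 in the same order of groups, while Ptprc stayed between -6.1 and 14.6. In the mean over the 8 arrays, 0 of 4 lymphoid, 0 of 3 epithelial and 1 of 4 endothelial markers (Kdr) exceeded the bound; on single arrays the epithelial markers Cdh1 and Krt8 reached 36.4 and 25.3. As the RNA is from whole cultures, fewer cells of a type and less RNA per cell cannot be told apart. Of 7 interferon check genes on the array, 6 rose with IFNβ in each line. Over all genes, 0.922% were called higher in L929IRF8 and 1.09% in L929 cells. The other check gene, Ifit1, read -11.3 to 3.8 on the 8 arrays, under the bound, so its probe gives no level. None of the 6 housekeeping genes passed the test.

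Promoter sequences are shown for the 4 measured members that have an entry in the RefSeq promoter table for the mouse assembly GRCm38.p6, because they let the induced genes be read beside a constitutive one. Each runs 5′ to 3′ on the gene's strand over 280 bases, from 250 bases before the annotated start to 30 bases after it. Capitals mark matches, on either strand, to the ISRE core (GAAA, any 2 bases, then GAAA) or to the Ets-IRF composite element (GGAA, any 2 bases, then GAAA). The 2 motifs can overlap each other. The third motif searched, GAS (TTCNNNGAA), had no match in these 4 windows.
Trim21, chr7:102565453-102565732, minus strand: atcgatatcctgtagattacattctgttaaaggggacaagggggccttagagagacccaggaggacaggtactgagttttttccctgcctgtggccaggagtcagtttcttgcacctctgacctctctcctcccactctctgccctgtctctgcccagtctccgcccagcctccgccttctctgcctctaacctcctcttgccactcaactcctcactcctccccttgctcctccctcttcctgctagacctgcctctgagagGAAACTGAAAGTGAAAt
Trim25, chr11:88999153-88999432, plus strand: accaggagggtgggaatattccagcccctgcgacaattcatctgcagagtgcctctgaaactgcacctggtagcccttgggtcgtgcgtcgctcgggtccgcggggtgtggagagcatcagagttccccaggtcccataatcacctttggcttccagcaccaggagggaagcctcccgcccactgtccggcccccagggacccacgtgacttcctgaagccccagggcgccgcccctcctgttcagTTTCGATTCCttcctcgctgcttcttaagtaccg
Trim56, chr5:137116178-137116457, minus strand: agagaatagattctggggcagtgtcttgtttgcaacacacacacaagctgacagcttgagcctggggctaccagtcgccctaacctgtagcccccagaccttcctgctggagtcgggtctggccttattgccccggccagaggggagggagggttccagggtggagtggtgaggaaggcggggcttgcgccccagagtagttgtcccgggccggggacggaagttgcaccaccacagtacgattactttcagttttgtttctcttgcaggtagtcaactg
Trim28, chr7:13023902-13024181, plus strand: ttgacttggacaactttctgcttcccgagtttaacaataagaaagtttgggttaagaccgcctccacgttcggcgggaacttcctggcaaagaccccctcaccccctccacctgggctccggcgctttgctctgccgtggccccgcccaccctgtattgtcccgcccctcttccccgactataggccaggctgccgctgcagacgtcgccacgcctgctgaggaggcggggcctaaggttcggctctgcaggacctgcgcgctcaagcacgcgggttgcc

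Trim21 has 2 overlapping ISRE core matches just after its start, at +14 to +23 and at +20 to +29. Trim25 has 1 composite match, read on the opposite strand, which spans the start from -4 to +6. No match was found in the Trim56 and Trim28 windows. Over the 32851 mouse promoter windows of 300 bases in the same table, 3.44% hold the ISRE core, 2.72% the composite element and 8.3% the GAS motif. A match of letters is a description and not a binding site, and binding was not measured in these samples.

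The first comparison asks what IFNβ did to the TRIM genes in each line. Trim21 rose most among the members, in both lines. Trim25 and Trim56 rose when averaged over the lines, Trim28 passed no test, and Trim33 fell modestly on 2 of its 4 probes. Called means an adjusted p under 0.05 in limma's moderated test, with Benjamini-Hochberg adjustment over all 25697 probes. In L929IRF8 cells 2 of 11 member probes were called higher (0.864% of all probes were) and 0 lower (0.21% of all probes). In L929 cells 2 member probes were called higher (0.996% of all probes) and 1 lower (0.28%). Averaged over the lines, 4 member probes were higher (1.49% of all probes) and 2 lower (0.72%).

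Trim21 encodes a cytosolic receptor for antibody, which binds the Fc part of antibody on incoming virus particles and ubiquitinates the complex. Its brightest probe, ILMN_3139158, read 546.2 and 489.7 intensity units in L929IRF8 with IFNβ, against 47.4 and 25.2 in untreated L929IRF8 cells. In L929 cells the same probe read 1317.8 and 1288.8 with IFNβ, against 27.0 and 26.9 untreated. All 4 treated arrays lay above all 4 untreated arrays, and the untreated values of 25.2 to 47.4 were just above the bound. The increase was 3.38 ± 0.21 on the log2 scale in L929IRF8 cells (SE, 15-fold, adjusted p = 0.0081, limma) and 4.94 ± 0.21 in L929 cells (48.4-fold, adjusted p = 0.00235). Folds here and below leave out the 16 units added before taking log2, so they differ from the log2 changes. The SE and p belong to the log2 changes. The L929IRF8 call was lost, with an adjusted p of 0.0505, when untreated L929 replicate 1 or 2 was left out. Group means were 518 ± 39.95 in L929IRF8 with IFNβ, 36.3 ± 15.7 in untreated L929IRF8, 1303 ± 20.5 in L929 with IFNβ and 26.95 ± 0.07 in untreated L929 cells (SD, n = 2 each). The order of levels was thus L929 with IFNβ, L929IRF8 with IFNβ, and then both untreated groups, which did not differ beyond their spread.

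A second Trim21 probe, ILMN_3061663, gave the same order. It read 132.3 and 127.5 in L929IRF8 with IFNβ, against 23.6 and 16.6 in untreated L929IRF8 cells, both under the bound. In L929 cells it read 295.7 and 320.1 with IFNβ, against 15.3 and 20.6 untreated, again under the bound. Since the untreated groups have only an upper limit, the increase was at least 5.48-fold in L929IRF8 cells (2.02 ± 0.13 on the log2 scale, SE, adjusted p = 0.0081, limma) and at least 13-fold in L929 cells (3.26 ± 0.13, adjusted p = 0.00186). The third Trim21 probe, ILMN_1214544, lay under the bound on all 8 arrays and gives no level for either line.

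Trim25 encodes a ligase that acts with the RNA sensor RIG-I and that can also attach the ubiquitin-like protein ISG15. Its probe, ILMN_2927093, read 108.3 and 117.4 in L929IRF8 with IFNβ, against 15.3 and 32.2 in untreated L929IRF8 cells. In L929 cells it read 90.3 and 114.6 with IFNβ, against 28.6 and 22.3 untreated. Treated and untreated arrays did not overlap, and 1 untreated array of each line was under the bound. Averaged over the lines, Trim25 rose by 1.62 ± 0.17 on the log2 scale (SE, adjusted p = 0.0224, limma). Within a line the test was not passed, with 1.73 ± 0.24 in L929IRF8 cells (4.08-fold, the low array raised to the bound, adjusted p = 0.0748) and 1.51 ± 0.24 in L929 cells (3.91-fold, adjusted p = 0.0947). The averaged call was kept in 2 of the 8 fits that leave out 1 array, those without an untreated L929IRF8 array. It was lost without untreated L929 replicate 1 (adjusted p = 0.0735) or 2 (0.0767), without IFNβ-treated L929 replicate 1 (0.0618) or 2 (0.0739), and without IFNβ-treated L929IRF8 replicate 1 (0.0712) or 2 (0.0717). When only probes above the bound were tested, Trim25 was called higher in each line, with adjusted p = 0.00483 in L929IRF8 and 0.00907 in L929 cells.

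Trim56, a ligase linked to the DNA sensing adaptor STING, was measured well above the bound on every array. Its probe, ILMN_2441921, read 536.6 and 473.0 in L929IRF8 with IFNβ, against 253.8 and 144.6 in untreated L929IRF8 cells. In L929 cells it read 512.8 and 531.2 with IFNβ, against 156.4 and 139.3 untreated. Treated and untreated arrays did not overlap, while the lines overlapped within each treatment, and the 2 untreated L929IRF8 arrays stood further apart than those of any other group. Averaged over the lines Trim56 rose by 1.52 ± 0.18 on the log2 scale (SE, adjusted p = 0.033, limma). The increase was 2.63-fold in L929IRF8 cells (1.32 ± 0.26, adjusted p = 0.164) and 3.54-fold in L929 cells (1.72 ± 0.26, adjusted p = 0.081), so neither line alone passed. Leaving out 1 array kept the averaged call only without an untreated L929IRF8 array. Leaving out untreated L929 replicate 1 or 2 gave an adjusted p of 0.103 each, against 0.0992 and 0.104 without IFNβ-treated L929 replicate 1 and 2, and 0.0963 and 0.0828 without IFNβ-treated L929IRF8 replicate 1 and 2. With values raised to the bound the averaged adjusted p was 0.0707. With probes above the bound only, Trim56 was called higher in both lines (adjusted p = 0.0265 in L929IRF8 and 0.00604 in L929 cells).

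Trim14, an adaptor of the mitochondrial signalling protein MAVS that lacks the RING domain, read -9.6 to -1.0 on the 8 arrays with probe ILMN_2427498. No group had a value above the bound, so its response to IFNβ was not measurable with this probe.

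**Figure D1:**
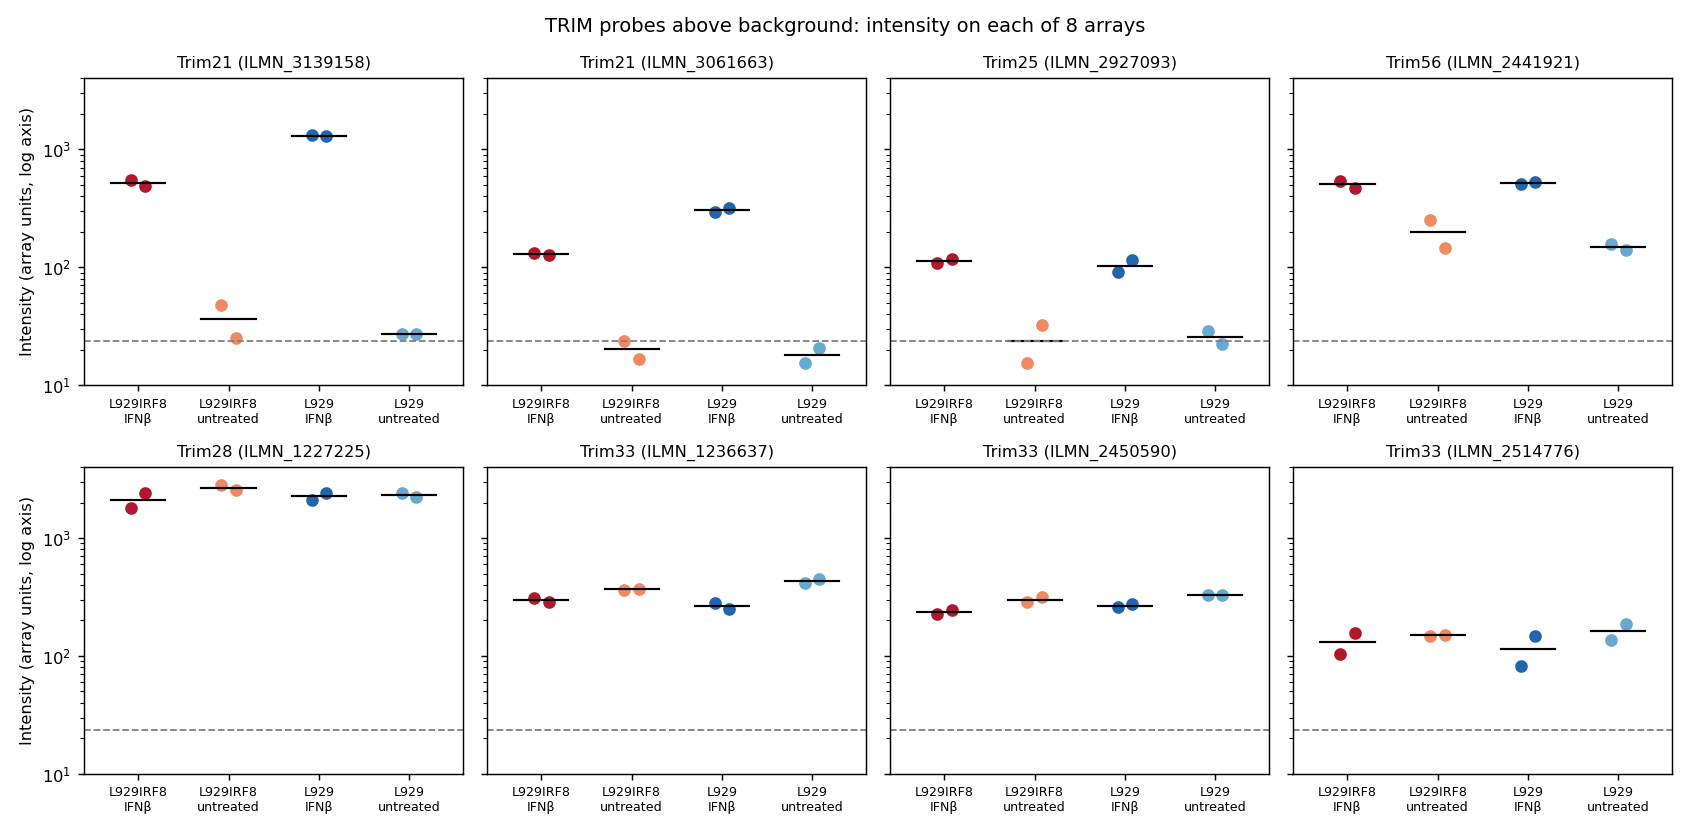
Intensity of the 8 TRIM probes with a mean above background on each of the 8 arrays (vertical log axis, array units), by group. Points are arrays, the short line is the mean of the 2 arrays of a group, and the dashed line is the background bound of 23.7 units. Trim21 at ILMN_3139158 reached 489.7 to 546.2 in L929IRF8 and 1288.8 to 1317.8 in L929 cells with IFNβ, while Trim28 stayed between 1801.6 and 2795.1 in every group.

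Among the members listed as constitutive, Trim28 encodes KAP1, the corepressor that KRAB zinc finger proteins recruit to silence retroelements. Its probe, ILMN_1227225, read 1801.6 and 2408.9 in L929IRF8 with IFNβ, against 2795.1 and 2535.9 in untreated L929IRF8 cells. In L929 cells it read 2099.7 and 2435.8 with IFNβ, against 2429.8 and 2223.1 untreated. The treated arrays lay below the untreated ones in L929IRF8 cells and overlapped them in L929 cells. The log2 change was -0.35 in L929IRF8 cells (95% interval -0.79 to 0.08, adjusted p = 0.655, limma) and -0.04 in L929 cells (-0.47 to 0.40, adjusted p = 1). No Trim28 comparison passed, and the L929IRF8 interval reaches down to -0.79.

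Trim33, also called TIF1γ, is a nuclear protein that ubiquitinates SMAD4 and binds SMAD2 and SMAD3 in TGFβ signalling. Its brightest probe, ILMN_1236637, read 307.5 and 285.2 in L929IRF8 with IFNβ, against 364.0 and 372.4 in untreated L929IRF8 cells. In L929 cells it read 283.6 and 248.2 with IFNβ, against 419.1 and 447.3 untreated. Every treated array was below every untreated one. Trim33 fell by 0.67 ± 0.08 on the log2 scale in L929 cells with this probe (SE, 1.63-fold lower, adjusted p = 0.0399, limma), and averaged over the lines the change was -0.49 ± 0.05 (adjusted p = 0.0277). The L929IRF8 value, -0.30 ± 0.08 (1.24-fold lower), did not pass (adjusted p = 0.286). The call in L929 cells was kept in 1 of 8 fits that leave out 1 array, the fit without IFNβ-treated L929 replicate 1, with adjusted p = 0.0397 to 0.126 over the 8. The averaged call was kept in 2 of 8, those without an IFNβ-treated L929 array, with adjusted p = 0.0295 to 0.0857. With values raised to the bound neither call held (adjusted p = 0.0769 in L929 and 0.053 averaged), and with probes above the bound only the L929 call was missed (0.0501).

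The other Trim33 probes were read separately. ILMN_2450590 read 226.7 and 243.5 in L929IRF8 with IFNβ, against 286.2 and 314.1 untreated, and 260.9 and 273.6 in L929 with IFNβ, against 326.3 and 329.6 untreated. Averaged over the lines it was lower by a log2 change of -0.31 ± 0.04 (SE, adjusted p = 0.0478, limma), a call that 0 of the 8 fits without 1 array kept (adjusted p = 0.056 to 0.132). Within a line the values were -0.33 in L929IRF8 (1.28-fold lower, adjusted p = 0.14) and -0.28 in L929 cells (1.23-fold lower, adjusted p = 0.192). ILMN_2514776 ranged from 103.5 to 156.7 in L929IRF8 with IFNβ, against 148.6 to 149.9 untreated, and from 81.5 to 148.9 in L929 with IFNβ, against 137.3 to 186.3 untreated. These ranges overlap in both lines, and its averaged change of -0.34 ± 0.23 did not pass (adjusted p = 0.733). The fourth probe, ILMN_1259222, was under the bound on all arrays.

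Set side by side on the brightest probe of each gene, the 4 inducible members with a probe were summarised by their median log2 change with IFNβ. It was 1.52 in L929IRF8, 1.61 in L929 and 1.57 averaged over the lines. Trim14, whose response was not measurable, was counted at the floor, which lowers these medians. By gene, 1 of 4 was called higher in each line and 3 of 4 averaged over the lines. Over all genes, 0.922% were higher and 0.253% lower in L929IRF8, 1.09% and 0.319% in L929, and 1.62% and 0.862% averaged. The 2 constitutive members had medians of -0.33, -0.36 and -0.34, and Trim33 was the gene called, lower in L929 and averaged. Over all 16593 genes the medians were -0.01, -0.01 and -0.02, and over the 7692 genes with a mean above the bound they were -0.08 in each case. Trim33, listed as constitutive, was lower with IFNβ on its 2 brightest probes, whose treated values did not overlap the untreated ones in either line. Few of the fits without 1 array kept those calls. Of the 9 fibroblast markers on the array, 1 was called with IFNβ in L929IRF8 cells, 0 in L929 cells and 1 averaged over the lines, with medians of 0.00, -0.09 and 0.00. The one called was Pdgfra, lower by a log2 change of -0.96 in L929IRF8 cells (2.08-fold, adjusted p = 0.0239, limma) and of -0.72 averaged over the lines (adjusted p = 0.0118), whereas Col3a1 had 0.77 in L929IRF8 cells without passing (adjusted p = 0.0744). Of the 6 myeloid markers on the array, 1 was called higher with IFNβ in L929 cells and averaged over the lines, and 0 in L929IRF8. Adgre1, under the bound on every array, read 7.0 and 8.9 in L929 with IFNβ, against -5.4 and -1.0 untreated. The part of these markers in the TRIM changes was not tested.

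**Figure D2:**
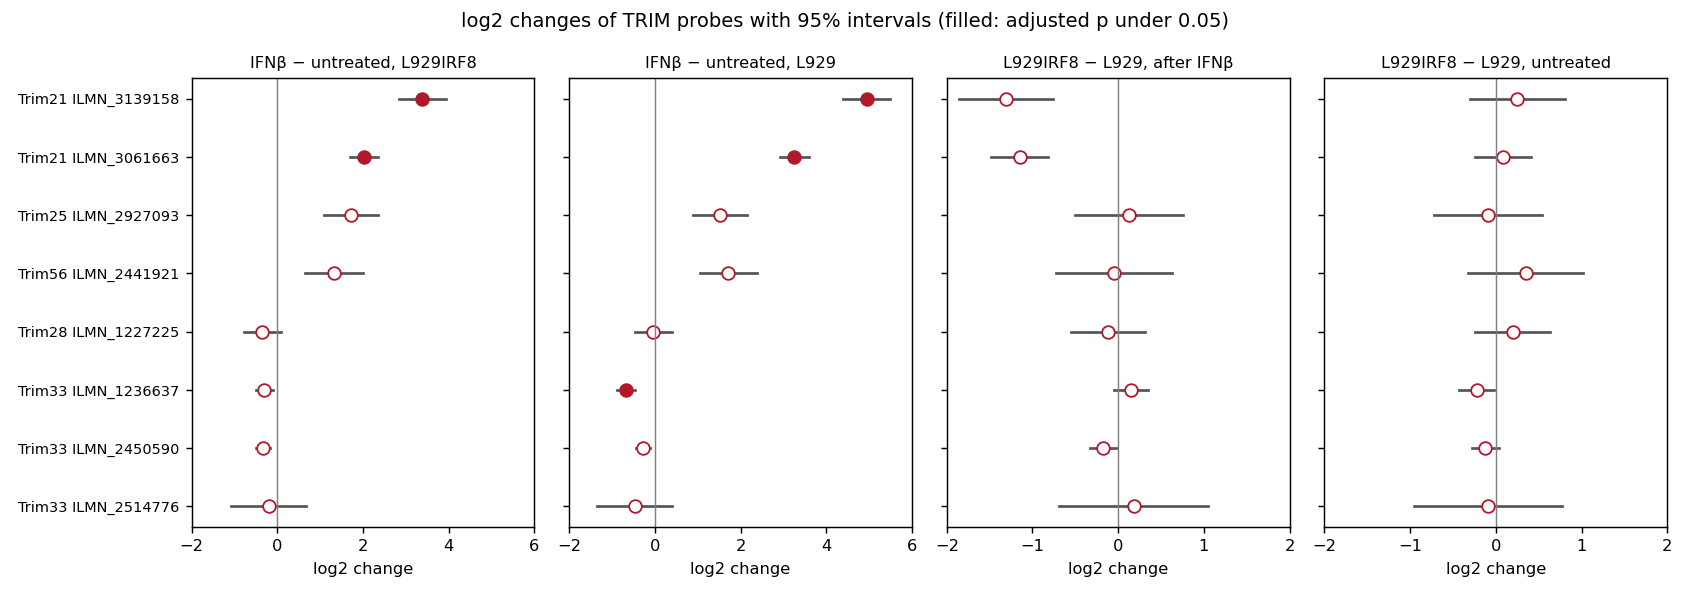
log2 changes (horizontal axis) of the 8 TRIM probes with a mean above background, with 95% intervals from limma; filled points have an adjusted p under 0.05 over all probes. From left to right the panels give IFNβ minus untreated in L929IRF8 and in L929 cells, and L929IRF8 minus L929 after IFNβ and untreated; the right 2 panels have a narrower axis. The Trim21 points lie at 3.38 and 2.02 in the first panel, at 4.94 and 3.26 in the second, and at -1.31 and -1.15 in the third, where no point is filled.

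The second comparison asks whether ectopic IRF8 changed the level of these genes or their response to IFNβ. No member probe passed the test. Untreated L929IRF8 against L929 gave 0 of 11 member probes called, against 0.0156% of all probes, and 1 at an unadjusted p under 0.05. After IFNβ, 0 of 11 were called, against 0.00389% of all probes, and 3 had an unadjusted p under 0.05. Averaged over the treatments 0 of 11 were called, against 0.00389% of all probes, with 3 under that unadjusted p. The interaction, which is the IFNβ change in L929IRF8 minus that in L929 cells, likewise had 0 of 11 called, against 0.00389% of all probes, with 3 under the unadjusted p. In all, 4 probes of the array were called between the untreated lines and 1 in each of the other 3 comparisons. An unadjusted p under 0.05 was found for 980 of all 16593 genes untreated, 876 after IFNβ, 1087 averaged and 810 for the interaction. Genes were counted at their brightest probe. Among them were 0 inducible and 1 constitutive member untreated, 1 and 0 after IFNβ and averaged, and 1 and 1 for the interaction.

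Trim21 was the member with the largest difference between the lines. After IFNβ its level was 2.52-fold lower in L929IRF8 than in L929 cells at ILMN_3139158, a log2 difference of -1.31 ± 0.21 (SE, 95% interval -1.86 to -0.76, unadjusted p = 0.00199, adjusted p = 0.356, limma). At ILMN_3061663 it was 2.37-fold lower, -1.15 ± 0.13 (interval -1.48 to -0.82, unadjusted p = 0.000363, adjusted p = 0.225). On both probes the 2 treated L929IRF8 arrays lay below the 2 treated L929 arrays with no overlap, and the gap was wider than the spread within either group. The 2 probes report 1 gene on the same arrays and are not independent. With every value below the bound set to the bound and no pseudocount, ILMN_3061663 passed at -1.24 (adjusted p = 0.0256, limma). That was the only 1 of 15 alternative fits in which it passed. The brighter probe ILMN_3139158 passed in 0 of 15, this setting included. Ranked by p among all 25697 probes, ILMN_3061663 stood at 41 and ILMN_3139158 at 144 in this comparison.

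The difference of the IFNβ changes of Trim21 was -1.56 ± 0.30 at ILMN_3139158 (SE, interval -2.34 to -0.78, unadjusted p = 0.00407, adjusted p = 0.507, limma) and -1.24 ± 0.18 at ILMN_3061663 (interval -1.70 to -0.77, unadjusted p = 0.00122, adjusted p = 0.39). The interval lies below 0 on both probes, but neither value passed once adjusted over the array. Without untreated L929IRF8 replicate 2, the lower of that group's arrays, ILMN_3139158 passed at -1.87 (adjusted p = 0.0378). That fit leaves 1 array in the group, which is assumed to vary like the other groups, and it called 121 probes of the array against 1 with all arrays. Before treatment the lines differed by 0.25 at this probe (interval -0.30 to 0.80, adjusted p = 0.972).

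For Trim25 and Trim56 the lines were close after IFNβ. Trim25 differed by 0.13 on the log2 scale (L929IRF8 minus L929, interval -0.50 to 0.76) and Trim56 by -0.05 (interval -0.72 to 0.63), each with an adjusted p of 1. Their differences in IFNβ change were 0.22 (interval -0.67 to 1.11) for Trim25 and -0.40 (interval -1.35 to 0.56) for Trim56. The Trim56 interval reaches below the value of -1.24 found for Trim21 at ILMN_3061663, but not to the -1.56 at ILMN_3139158. The Trim25 interval reaches neither value. Trim28 differed by -0.12 after IFNβ (interval -0.55 to 0.32). For Trim33 the interaction at ILMN_1236637 was 0.37 (interval 0.09 to 0.66, unadjusted p = 0.021, adjusted p = 0.86, limma). At ILMN_2450590 it was -0.05 (interval -0.27 to 0.17), and at ILMN_2514776 it was 0.272 (interval -0.953 to 1.497). At both of these probes the interval held negative and positive values, so opposite directions were not shown. The remaining Trim33 probe, ILMN_1259222, was under the bound on all arrays.

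The wider family was read from 52 other TRIM genes on the array (75 probes, and 20 genes whose brightest probe had a mean above the bound). With IFNβ 3 of 52 were called higher in L929IRF8, 3 in L929 and 4 averaged over the lines, and 0 were lower, where 0.922%, 1.09% and 1.62% of all genes were higher. Their median log2 change was -0.05 in L929IRF8, 0.00 in L929 and -0.01 averaged. Pml, which builds the nuclear bodies that bear its name, read 5471.6 on both arrays of L929IRF8 with IFNβ, against 1509.2 and 1367.7 untreated, and 5688.5 and 4833.6 in L929 with IFNβ, against 1529.0 and 1361.9 untreated (ILMN_2732576). It rose 3.81-fold in L929IRF8 (adjusted p = 0.00621, limma) and 3.63-fold in L929 cells (adjusted p = 0.00583). A second Pml probe, ILMN_1237135, rose 3.52-fold and 4.11-fold in the same order, and the third, ILMN_2731835, was not called.

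Trim30a and Trim30d belong to a cluster of related mouse TRIM genes, so probes may be shared between copies and the assignment to 1 copy is uncertain. Trim30d (ILMN_2695412) read 861.2 and 642.4 in L929IRF8 with IFNβ, against 5.7 and 16.1 untreated, and 1053.4 and 615.1 in L929 with IFNβ, against 8.0 and 8.3 untreated. It rose at least 31.4-fold in L929IRF8 (adjusted p = 0.0114, limma) and at least 34-fold in L929 cells (adjusted p = 0.00878). The L929IRF8 call of Trim30d was lost without untreated L929 replicate 1 or 2 (adjusted p = 0.0613 each) and the L929 call without untreated L929 replicate 1 (0.0521). Trim30a (ILMN_1229630) read 80.5 and 57.9 in L929IRF8 with IFNβ, against 3.0 and 0.3 untreated, and 50.2 and 54.4 in L929 with IFNβ, against -6.2 and -6.6 untreated. It rose at least 2.88-fold in L929IRF8 (adjusted p = 0.00975, limma) and at least 2.2-fold in L929 cells (adjusted p = 0.0105). With values raised to the bound Trim30a passed in neither line (adjusted p = 0.0765 in L929IRF8 and 0.139 in L929). Its L929IRF8 call was also lost without any 1 of the 4 L929 arrays (adjusted p = 0.0503 to 0.0555), and its L929 call without untreated replicate 1 (0.0592) or IFNβ-treated replicate 2 (0.0563) of that line. Trim72, a membrane repair protein of muscle, read 34.9 and 32.8 in L929IRF8 with IFNβ, against -3.2 and -2.1 untreated, and 28.0 and 58.2 in L929 with IFNβ, against 1.7 and 5.7 untreated. It passed only averaged over the lines (1.59 ± 0.19 on the log2 scale, SE, adjusted p = 0.0314), a call kept in 2 of the 8 fits without 1 array, those without an IFNβ-treated L929 array (adjusted p up to 0.104 in the others), and lost with a pseudocount of 64 (adjusted p = 0.0669) or when values were raised to the bound (0.641).

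**Figure D3:**
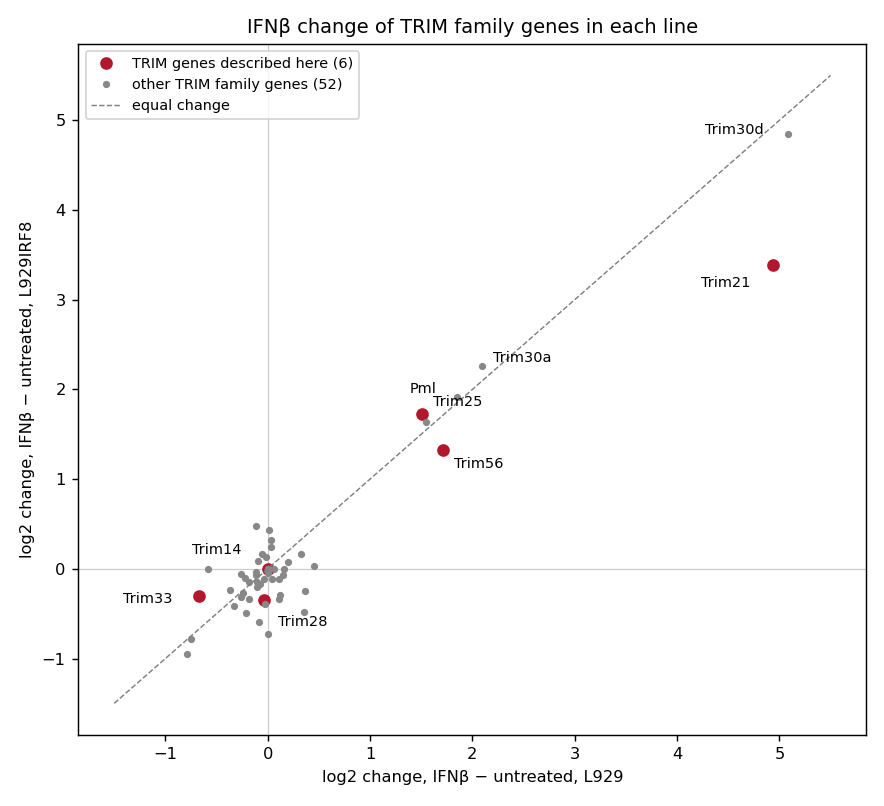
log2 change with IFNβ in L929IRF8 cells (vertical axis) against L929 cells (horizontal axis), 1 point per TRIM gene at its brightest probe: the 6 genes described here that have a probe, with Trim14 at the floor, and 52 others. The dashed line marks equal change. Trim21, at 3.38 in L929IRF8 and 4.94 in L929 cells, lies below the line, Trim30d, Pml, Trim30a, Trim25 and Trim56 lie near it, and most other genes sit around 0.

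The sensing pathway in which Trim25, Trim56 and Trim14 act was read from a list of 15 genes, of which 13 are on the array. In each line 4 were called higher with IFNβ, 5 averaged over the lines, and 0 lower. Of these 13, 12 had a mean above the bound; over the 7692 such genes of the array 1.69% were higher in L929IRF8, 2.12% in L929 and 3.03% averaged. Ddx58, which encodes RIG-I, rose at least 35.9-fold in L929IRF8 and at least 58.1-fold in L929 cells. Its regulator Dhx58 (LGP2) rose at least 46.2-fold and 67.3-fold, the RNA sensor Ifih1 (MDA5) at least 2.38-fold and 3.1-fold, and the transcription factor Irf7 at least 17.5-fold and 24-fold in the same order, each with its untreated arrays under the bound. With values raised to the bound Ifih1 no longer passed (adjusted p = 0.113 in L929IRF8 and 0.0502 in L929). Rnf135, another RIG-I ligase beside Trim25, read 786.0 and 575.6 in L929IRF8 with IFNβ, against 272.4 and 242.4 untreated, and 1010.5 and 704.6 in L929 with IFNβ, against 263.3 and 234.2 untreated. It passed averaged over the lines (1.52 ± 0.16 on the log2 scale, SE, adjusted p = 0.0244, limma) and in 3 of 8 fits without 1 array. The Rnf135 call was lost without any 1 of the 4 untreated arrays (adjusted p = 0.0771 to 0.0844) or IFNβ-treated L929IRF8 replicate 1 (0.0573). The adaptor Mavs and the kinases and factors downstream of it (Tbk1, Ikbke, Ikbkg, Traf6 and Irf3) were not called. Zc3hav1 was not called either. It read 153.8 and 166.7 in L929IRF8 with IFNβ, against 43.4 and 85.2 untreated. In L929 cells it read 127.9 and 146.2 with IFNβ, against 41.0 and 75.7 untreated. On the DNA sensing side, Cgas had a mean of 17.45, under the bound, and the STING gene is not among the 13.

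Genes of ubiquitin and ISG15 transfer were split. The list held enzymes that hand ubiquitin or ISG15 to such ligases, and also Usp18 and Isg15 itself, which do not. Isg15 and Usp18 are also among the interferon check genes. Of 12 listed, 8 are on the array; with IFNβ 3 were higher in L929IRF8, 4 in L929, 4 averaged, and 0 lower, where 0.922%, 1.09% and 1.62% of all genes were higher. Those called belong to the ISG15 pathway. Isg15 itself read 6615.2 and 5993.5 in L929IRF8 with IFNβ, against 38.1 and 23.1 untreated, and 9116.0 and 7608.0 in L929 with IFNβ, against 26.5 and 30.1 untreated. Its carrier enzyme Ube2l6 rose 6.1-fold in L929IRF8 (adjusted p = 0.0154, limma) and 9.87-fold in L929 cells (adjusted p = 0.00696), and Usp18, which removes ISG15, also rose in both lines. The L929IRF8 call of Ube2l6 was lost without any 1 of the L929IRF8 arrays or either IFNβ-treated L929 array (adjusted p = 0.0509 to 0.061). Uba7, the enzyme that activates ISG15, rose 23.6-fold in L929 cells (adjusted p = 0.0268) and was 10.7-fold higher in L929IRF8 cells without passing (adjusted p = 0.0662). The L929 call of Uba7 was kept in 0 of 8 fits without 1 array (adjusted p = 0.053 to 0.113), while the averaged call was kept in 8. The ubiquitin carriers Ube2d1, Ube2d2a, Ube2d3 and Ube2n were not called in any IFNβ comparison.

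For the nuclear members, 11 partners of Trim28 and Trim33 were listed, and 9 are on the array, each with a mean above the bound: Setdb1, Cbx1, Cbx3, Cbx5, Hdac1, Hdac2, Smad2, Smad3 and Smad4. None was called in any of the 7 comparisons. At an unadjusted p under 0.05 there were 0 in L929IRF8, 1 in L929 and 1 averaged over the lines. Of the 7692 genes with a mean above the bound, 1235, 1252 and 1732 were under it in that order. With IFNβ, 1.69%, 2.12% and 3.03% of those genes were called higher, and 0.403%, 0.481% and 1.57% lower. Their median log2 change with IFNβ was -0.01 in L929IRF8, -0.08 in L929 and -0.02 averaged, beside -0.08 over all genes above the bound. Smad4, the substrate of Trim33, read 2229.7 and 2704.3 in L929IRF8 with IFNβ, against 2753.7 and 3133.2 untreated, and 2246.4 and 2560.4 in L929 with IFNβ, against 2773.2 and 2784.8 untreated.

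The genes with the pattern most like each induced member were named by Pearson's r of log2 values over the 8 arrays, among 7691 other genes with a mean above the bound. These r values are descriptions over 4 groups of 2 arrays that share the IFNβ contrast. As the genes were picked on the same 8 arrays, a likeness to the member, also between the lines, comes with the choice. It is no separate evidence on the member. Gbp2b (r = 0.9986), Oas1b (0.9954) and Gbp3 (0.9952), which are interferon-induced guanylate-binding proteins and an oligoadenylate synthetase gene, came closest to Trim21. Gbp2b averaged 824.8 in L929IRF8 with IFNβ, 1.2 in untreated L929IRF8, 2899.7 in L929 with IFNβ and -2.4 in untreated L929 cells. Gbp3 averaged 1522.1, 12.6, 3767.9 and 14.1 in that order of groups. For Gbp2b and Gbp3, picked for likeness to Trim21, the treated mean was lower in L929IRF8 than in L929 cells. Closest to Trim25 were Zbtb5 (r = 0.9874), Tor1aip2 (0.9869) and Csrnp1 (0.9865), whose treated means were close in the lines, as for Zbtb5 with 456.1 in L929IRF8 and 430.8 in L929 cells. Closest to Trim56 were Uba7 (r = 0.9822), Fcgr4 (0.9810) and Psme1 (0.9789), the last a subunit of the proteasome activator PA28. With IFNβ, Uba7 averaged 2647.4 in L929IRF8 and 4231.6 in L929 cells, whereas Trim56 averaged 504.8 and 522.0. Fcgr4 averaged 1171.0 and 1230.8, and Psme1 3285.6 and 3677.9, in the same order.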

How the data were processed

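RNA of 8 cultures was labelled with biotin and hybridised to Illumina mouse bead arrays, per the labels' protocols. For each of 25697 probes the deposited table gives a linear intensity. Which tool made it is not given in the sources used here. The values show background subtraction (28.1% to 28.3% of probes per array below 0) and quantile normalization (sorted values differ by at most 1.7 units between arrays). A shift common to most genes cannot be seen after that step, and nothing was normalized again. Probes were named from the platform annotation: 23978 have 1 symbol and 1719 have none. The Entrez IDs of all 11 member probes give the same symbol in RefSeq. "Brightest" means the highest mean log2 value among a gene's probes.

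Negative intensities were set to 0, 16 was added and log2 taken, which understates changes of dim genes. Using limma 3.58.1 (lmFit, eBayes) in R 4.3.3, all 8 arrays entered 1 model with a coefficient per group, unfiltered and without a block. The residual degrees of freedom were 4, and the eBayes prior contributed 0.684 more. P-values are two-sided, adjusted over all probes (threshold 0.05), and measure the spread between these arrays. With 2 arrays against 2, the smallest exact permutation p is 0.333. Folds are ratios of geometric means without the added 16, where a value below the bound counts as the bound. They were not tested themselves. "At least" marks a group with both arrays under it. The fit was tested on simulated data, and tables were made with Python 3.11.15.

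The members and lists were chosen with earlier results of these data known. Named genes are all members with every probe, other TRIM genes called in an IFNβ comparison, and the 3 genes most like each induced member above the bound. Genes named from the partner and marker lists, and Trim36 and Trim37, were chosen after their values were seen. Fits were repeated under 15 alternatives.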

Additional observations from a re-analysis of the deposited data

How the results depend on the processing

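Over the 15 alternatives (pseudocounts of 4 and 64, values raised to the bound, probes above the bound only, arrays centred on their medians, an intensity trend, a replicate block, and 8 fits without 1 array), 1030 of 1134 member values kept direction and side of the threshold, 46 lost a call, 10 gained one, and 0 called values changed sign. Of the 959 called in neither fit, 48 changed sign.

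The count of member probes called in L929IRF8 (2) became 4 with probes above the bound only, and 1 to 3 without 1 array, being 1 without either untreated L929 array. The averaged count (6) became 3 with values raised to the bound and 2 to 4 without 1 array: 2 without an untreated L929 or an IFNβ-treated L929IRF8 array, and 3 without an IFNβ-treated L929 array. After IFNβ, the count between the lines (0) became 1 with values raised to the bound. The interaction count (0) became 0 to 1 without 1 array, being 1 without untreated L929IRF8 replicate 2. In L929 cells the count (3) ranged from 2 to 4. Counts without an array come from fewer samples, and the cause of the other changes was not tested. Over all probes, values raised to the bound gave 170 calls in L929IRF8 (276 otherwise), 182 in L929 (328) and 348 averaged (568). Without 1 array the ranges were 135 to 526, 217 to 469 and 501 to 717. Between the lines, where 4 or fewer probes were called in each comparison, the counts ran up to 264 untreated, 266 after IFNβ, 162 averaged and 142 for the interaction in fits without 1 array.

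The labels number the replicates but do not say what a number shares, and with 2 numbers the samples were not treated as paired. Same-numbered arrays deviated together (r = 0.441 to 0.523). With a replicate block, 2 member probes were called in L929IRF8, 2 in L929, 5 averaged and 0 in each other comparison. Trim33 ILMN_1236637 was not called under the block in L929 (adjusted p = 0.0786) or averaged (0.0508). Among other genes, Rnf135 passed under the block in L929IRF8 (0.0496) and L929 (0.0289), and Uba7 in L929IRF8 (0.0425). The averaged call of Trim33 ILMN_2450590 was lost with a pseudocount of 4 (adjusted p = 0.0597), values raised to the bound (0.0816), probes above the bound only (0.133), centring (0.0549) and the intensity trend (0.0579).

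With 2 arrays per group, a change within 1 line had to be large against the shared spread to pass. Signal near the bound limits the untreated level of Trim21 and Trim25 and every level of Trim14.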

Other observations

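Trim37 and Trim36, chosen after their values were seen, are other TRIM genes whose treated values were lower in both lines. Trim37, a ligase of peroxisomes and centrosomes, read 27.0 and 26.7 in L929IRF8 with IFNβ, against 60.6 and 73.5 untreated, and 24.7 and 32.9 in L929 with IFNβ, against 75.3 and 49.2 untreated (ILMN_1247915). The treated and untreated arrays did not overlap, and the averaged log2 change of -0.87 ± 0.14 did not pass (SE, unadjusted p = 0.00191, adjusted p = 0.0672, limma). Trim36 read 25.4 and 38.2 in L929IRF8 with IFNβ, against 56.5 and 75.4 untreated, and 23.2 and 35.2 in L929 with IFNβ, against 44.8 and 76.7 untreated (ILMN_2857947). Its averaged change was -0.76 (adjusted p = 0.211).

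The promoter table also holds Trim26 and Trim27, which have no probe. The Trim26 window on chromosome 17 has 2 overlapping ISRE core matches on the opposite strand, at -160 to -151 and -154 to -145, and the Trim27 window has no match to the 3 motifs.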
